A study of Mus musculus with 2 samples.

Results

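Chemokines and their receptors were followed in liver non-parenchymal cells of normal and fibrotic mice. The genes were taken by their names: every listed Ccl, Cxcl, Ccr, Cxcr and Ackr gene with a number, plus Xcl1, Xcr1, Cx3cl1, Cx3cr1, Pf4 and Ppbp. This gave 58 genes of the 21722 listed in either library, 36 for ligands and 22 for receptors. All 58 were listed in the normal library and 57 in the fibrosis library, where Ccl21c was not listed. On mouse build GRCm38, 14 of the 58 lie on chromosome 11, 13 on chromosome 9 and 10 on chromosome 5.

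Non-parenchymal cells are the cells of the liver other than hepatocytes. Expression was measured by single-cell RNA-seq in 2 libraries of C57BL/6 mice aged 8 weeks, 1 for each condition. The fibrosis library came from a male mouse given carbon tetrachloride (CCl4, 15% in olive oil, 0.6 µL per g body weight) by injection 2 times a week for 6 weeks and killed 48 h after the last dose. The normal library came from a male olive oil control. The sex and the single animal are taken from the study's own description, since the labels leave them out. A single library stood for each condition. No test could be made, and every ratio below compares these libraries with no replicate check. Both suspensions were depleted of hepatocytes by slow centrifugation, and the protocol shapes which cells are present.

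Chemokines are small secreted proteins that direct the movement of leukocytes. They act through G protein-coupled receptors on the moving cell, and atypical receptors such as those encoded by the Ackr genes take ligands up without classical signalling. Several ligands share a receptor, for example Cxcl1 and Cxcl2 on Cxcr2 of neutrophils, and Cxcl9 and Cxcl10 on Cxcr3 of T cells. Others form closed pairs, such as Xcl1 with Xcr1 and Cxcl16 with Cxcr6. In liver injury these signals bring monocytes, neutrophils and lymphocytes into the sinusoids.

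The promoters of 4 ligand genes are shown because Cxcl2, Cxcl3 and Ccl3 were higher together in the neutrophil-like cells of the fibrosis library and Cxcl10 led in endothelial cells. Each is the 250 bases before the gene's start in RefSeq (GRCm38.p6), 5′ to 3′ on the gene's strand. Capitals mark matches, on either strand, to a kB-like motif (GGG, any 3 bases, then TTCC) or, in the Cxcl10 promoter, also an ISRE-like motif (GAAA, any 2 bases, then GAAA). Matches that overlap are run together. The positions are chr5:90903649-90903898 (+ strand) for Cxcl2, chr5:90785851-90786100 (+) for Cxcl3, chr5:92348890-92349139 (− strand) for Cxcl10 and chr11:83649379-83649628 (−) for Ccl3.
Cxcl2: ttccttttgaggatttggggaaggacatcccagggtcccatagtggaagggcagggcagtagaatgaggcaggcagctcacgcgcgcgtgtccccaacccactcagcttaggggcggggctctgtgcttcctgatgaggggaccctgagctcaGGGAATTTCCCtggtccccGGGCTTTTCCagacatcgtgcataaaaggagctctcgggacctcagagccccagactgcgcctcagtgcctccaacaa
Cxcl3: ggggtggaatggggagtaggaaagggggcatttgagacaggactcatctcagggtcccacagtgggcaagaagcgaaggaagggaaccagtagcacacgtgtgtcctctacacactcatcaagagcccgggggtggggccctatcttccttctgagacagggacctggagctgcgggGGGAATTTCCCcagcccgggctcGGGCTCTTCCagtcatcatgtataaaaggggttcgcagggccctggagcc
Cxcl10: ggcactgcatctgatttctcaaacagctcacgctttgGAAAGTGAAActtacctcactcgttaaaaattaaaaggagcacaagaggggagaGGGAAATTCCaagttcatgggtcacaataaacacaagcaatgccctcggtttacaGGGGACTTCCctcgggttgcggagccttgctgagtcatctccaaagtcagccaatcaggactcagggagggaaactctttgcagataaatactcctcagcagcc
Ccl3: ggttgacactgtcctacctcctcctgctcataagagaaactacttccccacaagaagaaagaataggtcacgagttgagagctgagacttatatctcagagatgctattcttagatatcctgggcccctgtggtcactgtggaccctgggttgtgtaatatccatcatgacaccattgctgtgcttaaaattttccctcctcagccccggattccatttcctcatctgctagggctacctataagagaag
The kB-like motif matched in 1244 of 27025 promoters of this length (4.6%) and in 8 of the 44 member genes with a promoter in the table, namely Ccl1, Ccl9, Ccl20, Ccr3, Cxcl1, Cxcl2, Cxcl3 and Cxcl10. The ISRE-like motif matched in 821 promoters (3.04%) and in 3 members, Ccl19, Cxcl10 and Cxcl14. Cxcl2 and Cxcl3 each held a pair of matches, 1 on each strand and offset by 1 base, followed by another match nearer the start. The Ccl3 window held neither motif. A match is only a run of letters and says nothing of binding.

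The normal library held 8130 cells and 44062632 UMIs (unique molecular identifiers, the counted molecules) and the fibrosis library 6437 cells and 53288463 UMIs. After cells with 10% or more mitochondrial UMIs were left out, 7471 cells (median 4226 UMIs) and 6132 cells (median 5775.5 UMIs) remained. Barcodes shared by both libraries numbered 15. Cells were clustered in each library without the 58 genes and named by marker lists, and a name ends in "-like" because it rests on at least 3 raised markers. The largest named classes were LSEC-like cells in the normal library (982) and erythroid-like droplets in the fibrosis library (689), and hepatocyte-like cells numbered 127 and 148. Levels are given as UMIs of a gene per 10000 UMIs of all cells of a class, with a 95% interval that covers counting error only. They can be compared between classes for 1 gene, but not between genes. A change in level cannot be told apart from a change in the make-up of a class, because the clusters behind a name were not the same in both libraries.

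RNA in erythroid-like droplets differed between the libraries and is given beside the results. In erythroid-like droplets, which should hold no chemokine RNA of their own, the 58 genes summed to 5.31 UMIs per 10000 in the normal library (428 droplets, median 3425 UMIs) and to 31.9 in the fibrosis library (689 droplets, median 1037 UMIs). In these droplets 76.8% of all genes with enough UMIs were 2-fold or more higher in fibrosis, and 22 of 25 member genes were. Cxcl10 stood at 1.02 and 6.69 UMIs per 10000 there, Cxcl2 at 0.0611 and 2.58, Cxcl16 at 0.475 and 2.49, Cxcl12 at 0.543 and 2.06, Ccl4 at 0.265 and 2.06, and Ccl5 at 0.401 and 0.208. No expression is read from a level in another class that lies near or under these values. The part of such RNA in the results was not tested, and ratios with the erythroid-like level subtracted are given for some genes. In fibrosis the level subtracted was above the whole level of other classes for genes such as Cxcl10. Subtracting it can then take away too much.

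In all, 30 of the 58 genes (17 ligands and 13 receptors) reached 1 UMI per 10000 in a named class of at least 30 cells. For each the leading class was the class, of the 16 found in both libraries, with the highest level over the pooled libraries. Of these genes 29 had 20 or more UMIs there, and 5 were higher in fibrosis by a fold of 2 or more while 10 were lower by as much. Among ligands 3 of 17 were higher and 8 lower, and among receptors 2 of 12 were higher and 2 lower. Over all genes, the share called higher ran from 5.08% in Kupffer cell-like cells to 15.3% in monocyte-like cells, aside from the hepatocyte-like (41.9%) and erythroid-like classes, and the share called lower ran from 3.99% in erythroid-like droplets to 9.36% in neutrophil-like cells.

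**Figure D1:**
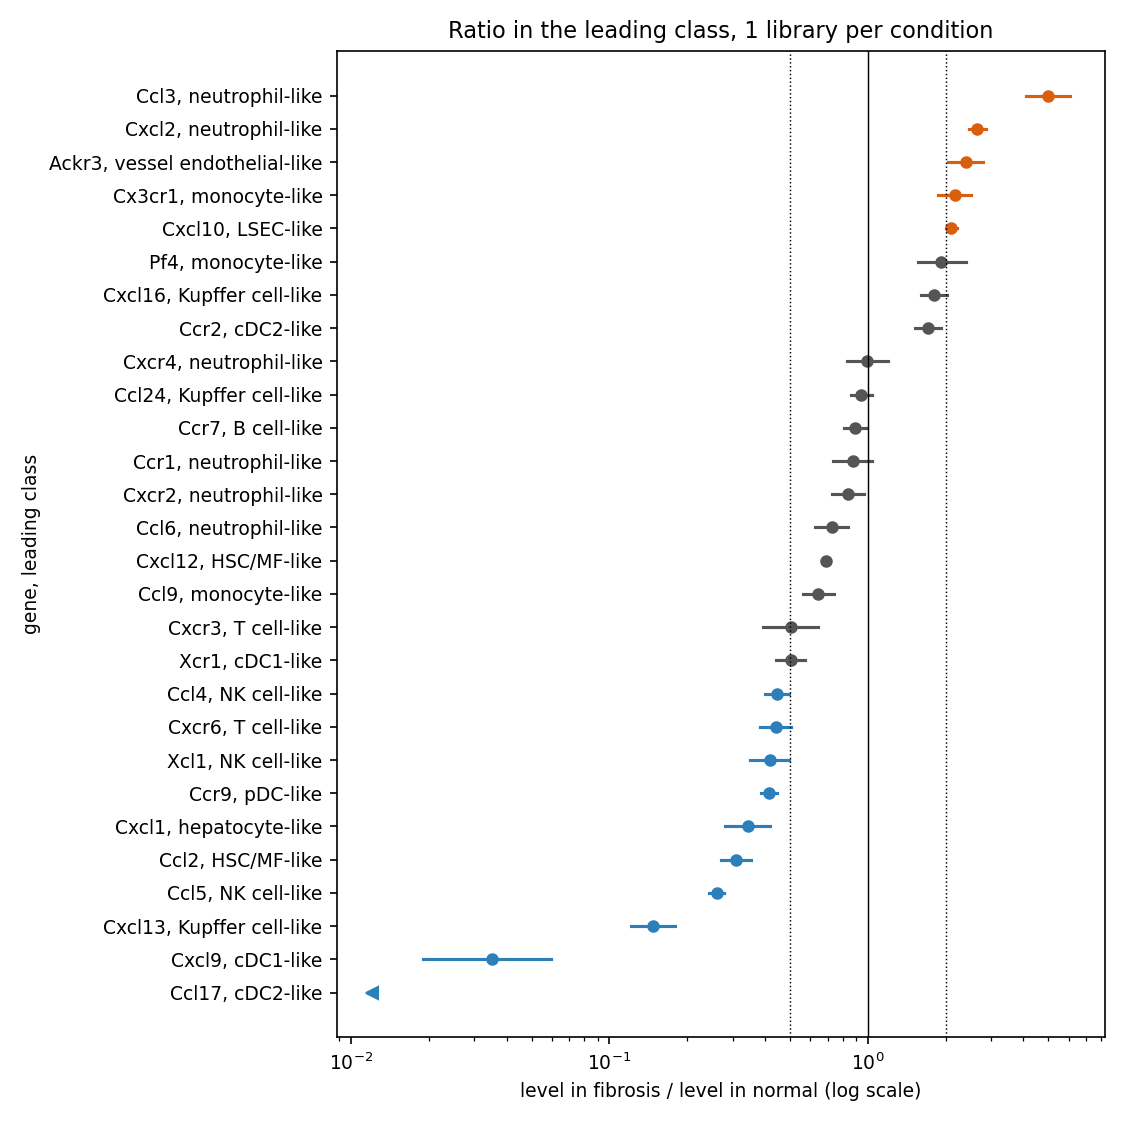
Ratio of the fibrosis level to the normal level of 28 member genes in their leading class, on a log axis. Points are ratios, bars are 95% intervals for counting error, dotted lines mark ratios of 0.5 and 2, and the triangle marks the upper end of the interval for Ccl17, which had 0 UMIs in fibrosis. The ratios ran from 4.98 for Ccl3 down to 0.0350 for Cxcl9 and below.

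**Figure D2:**
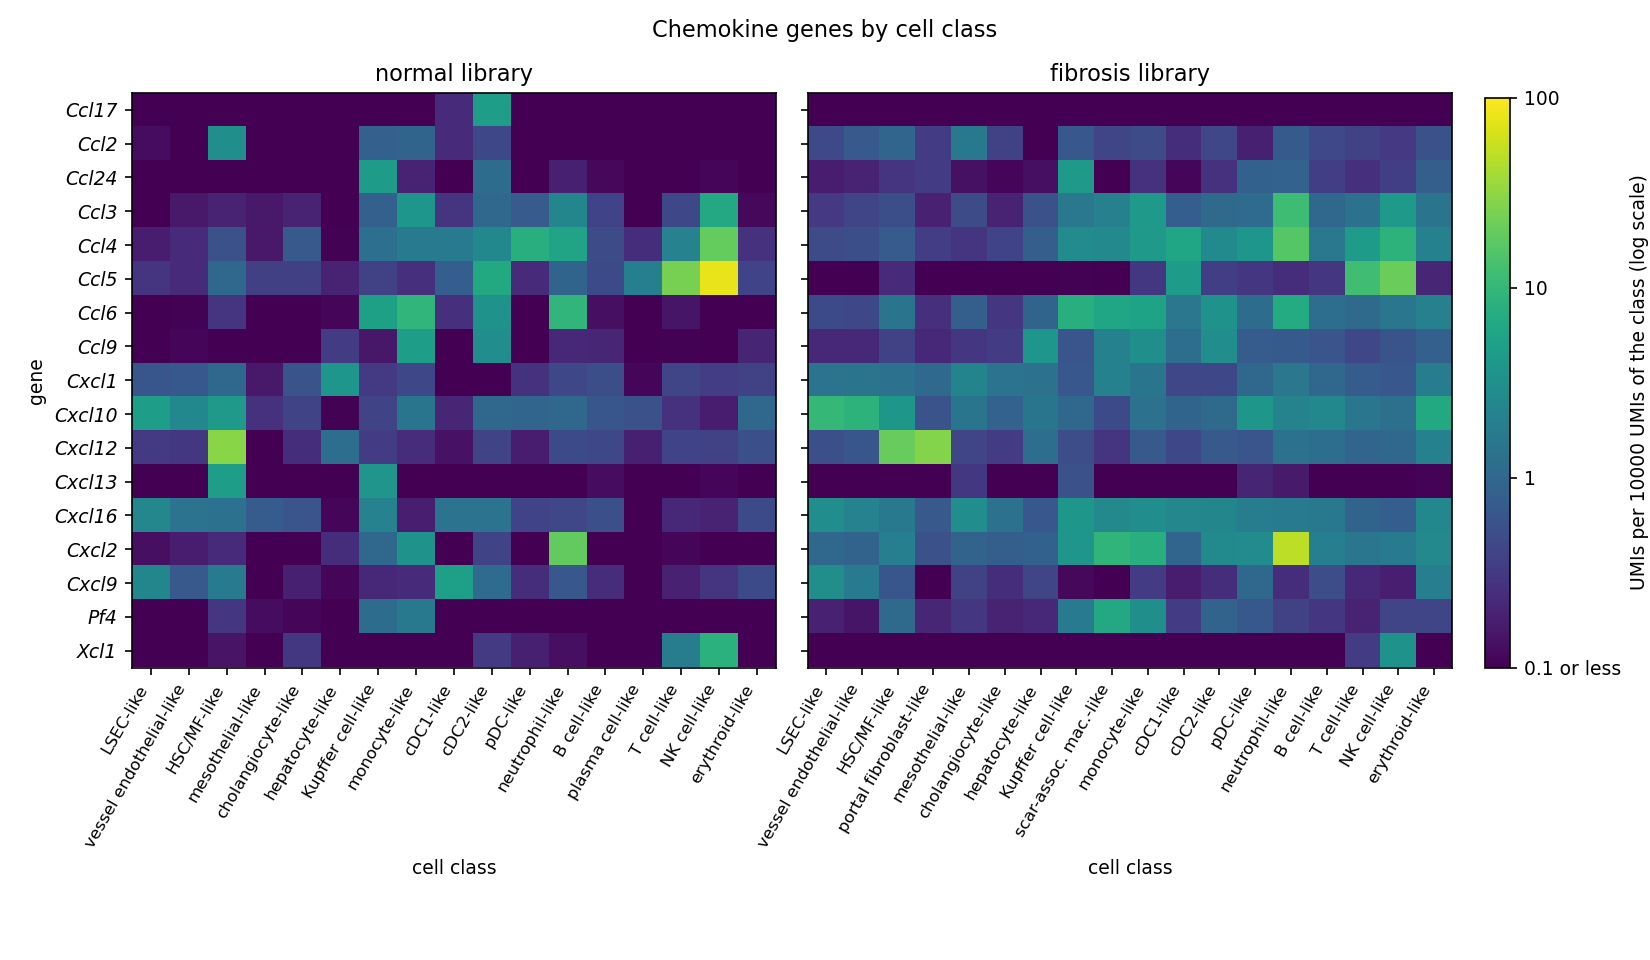
Level of 17 ligand genes by cell class in the normal (left) and fibrosis (right) library, in UMIs per 10000 UMIs of the class on a log colour scale. Ccl5 stood out in NK cell-like cells (79.9 and 20.8), Cxcl12 in HSC/MF-like cells (29.3 and 20.2) and Cxcl2 in neutrophil-like cells (19.0 and 50.5), and the erythroid-like column was brighter in fibrosis.

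Among the ligands of Cxcr2, the receptor that draws neutrophils, Cxcl2 was led by the neutrophil-like cells themselves. Its level there was 19.0 UMIs per 10000 in the normal library (95% interval 17.9 to 20.1, 191 cells) and 50.5 in the fibrosis library (48.2 to 52.8, 190 cells), a ratio of 2.66 (2.47 to 2.87). After thinning each cell to 1000 UMIs, 47.6% of normal cells and 67.9% of fibrosis cells had a Cxcl2 UMI, with 31 shallower fibrosis cells left out. Before thinning 62.3% and 75.3% had one, at medians of 2650 and 1710.5 UMIs per cell. In erythroid-like droplets the thinned shares were 0.701% and 25.8%, with 320 fibrosis droplets left out. The neutrophil-like level stood far above that of erythroid-like droplets in both libraries, and the ratio was 2.53 with that level subtracted.

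Neutrophil-like cells fell into 2 clusters in each library, which did not match one to one. In the normal library Cxcl2 stood at 24.1 UMIs per 10000 in the larger cluster (167 cells, led by S100a9, S100a8 and Retnlg) and 4.96 in the other (24 cells), which was led by Ngp, Ltf and Camp, genes of granules made in immature neutrophils. The cluster of 24 cells also had a higher median doublet score (0.2404 against 0.0187) and a higher median depth (6103.5 against 2487 UMIs). In the fibrosis library the level was 63.4 in the larger cluster (114 cells), which also held Ngp, Camp and Ltf among its 10 leading genes, and 22.7 in the other (76 cells), led by Retnlg, Slc7a11 and Slfn4. In the normal library Cxcl2 was at 38.3 in cells without a Cxcr2 UMI (20 cells, median 1653.5 UMIs) and at 14.8 in those with 2 or more (139 cells, median 2729 UMIs), but 3 of the 20 cells held 74.7% of their Cxcl2 UMIs. In fibrosis the values were 46.8 in 68 cells and 42.5 in 80 cells.

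Monocyte-like and macrophage-like cells also carried Cxcl2. In monocyte-like cells Cxcl2 went from 3.46 UMIs per 10000 to 7.54, a ratio of 2.18 (1.89 to 2.52). In the fibrosis library the scar-associated macrophage-like class, named by Trem2, Gpnmb and Spp1 among others and given as a name in this library alone, stood at 9.19 (205 cells) and held 22.2% of all Cxcl2 UMIs of that library. Over all monocyte and macrophage clusters together Cxcl2 went from 2.30 in 630 cells to 8.13 in 1026 cells. In the normal library, by contrast, neutrophil-like cells held 44.1% of Cxcl2 UMIs, and in the fibrosis library 10.9%.

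**Figure D3:**
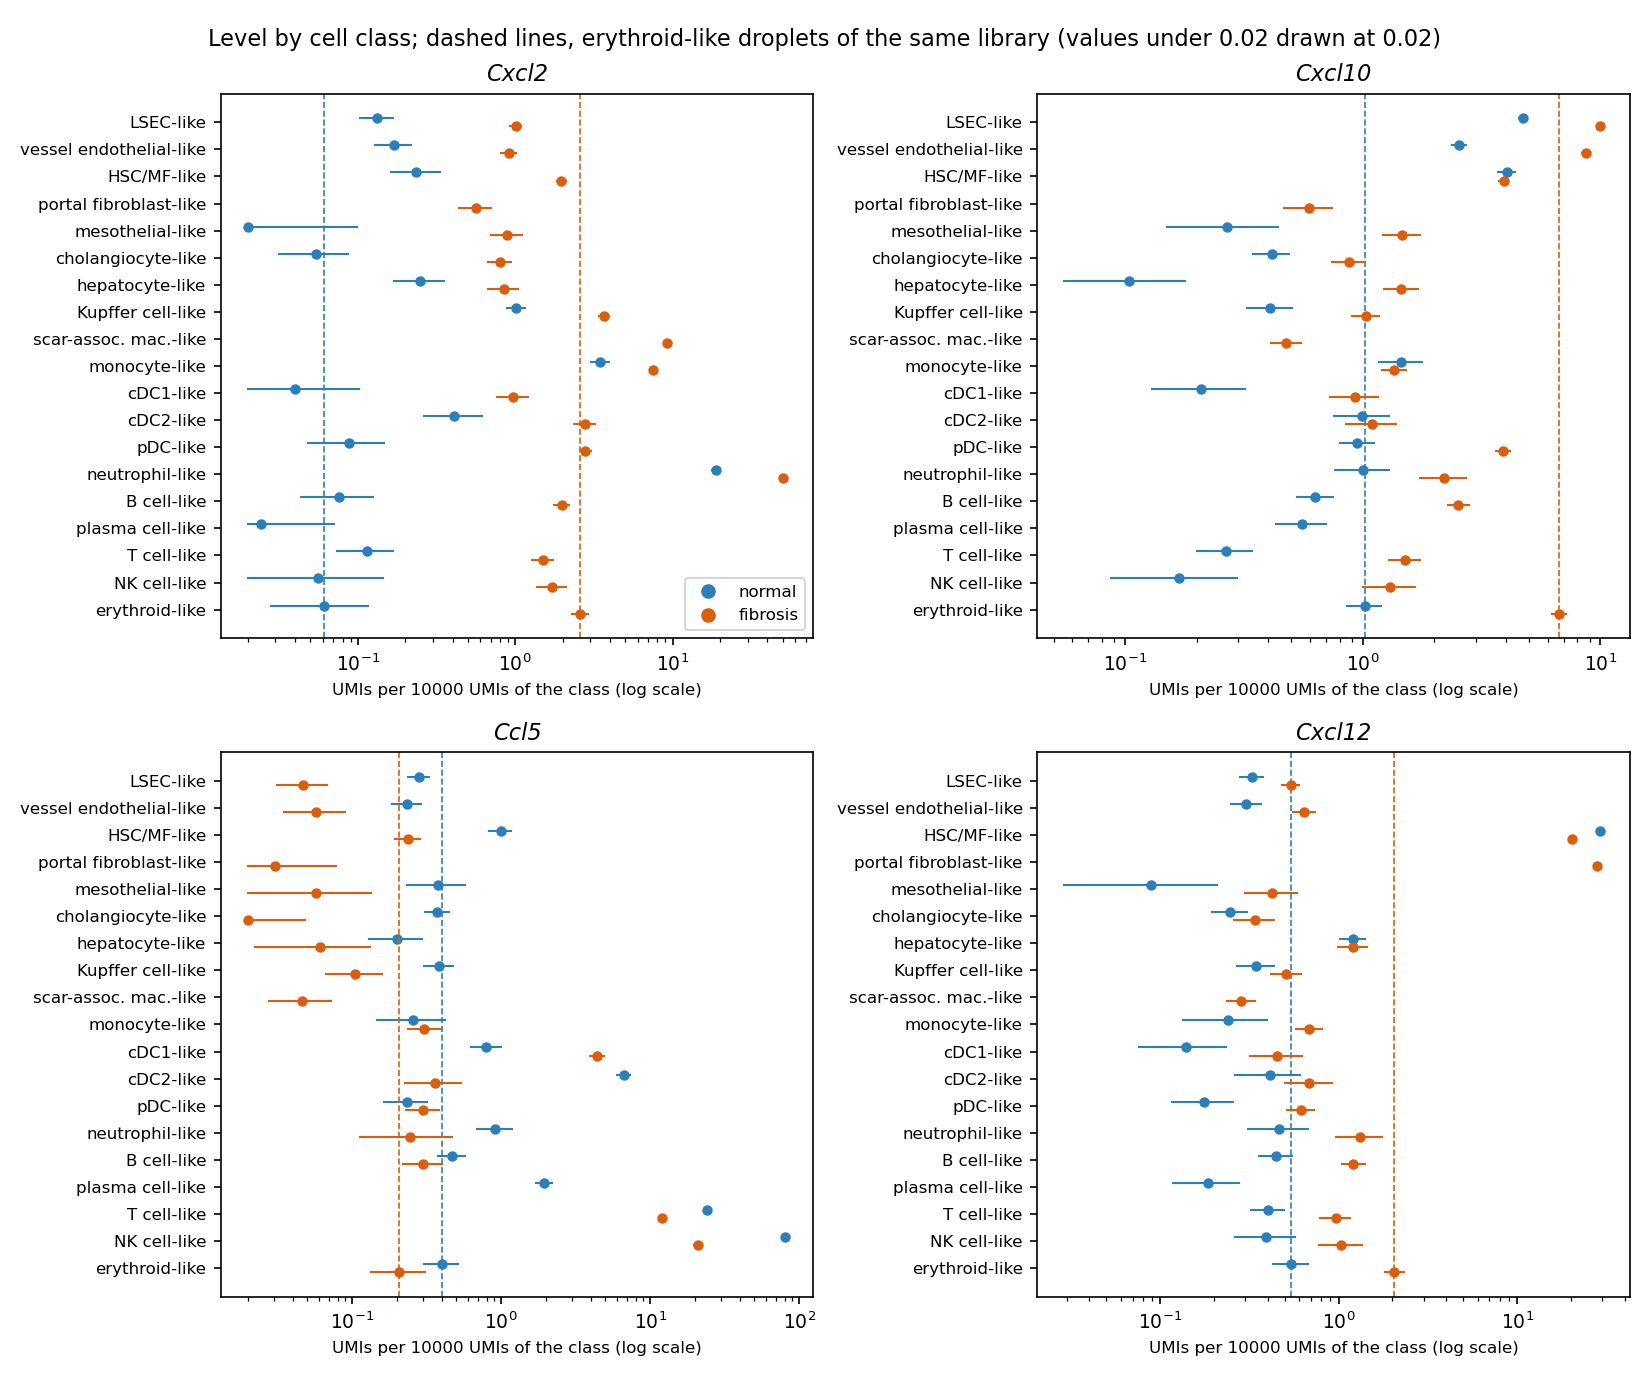
Level of Cxcl2, Cxcl10, Ccl5 and Cxcl12 by cell class in the normal (blue) and fibrosis (orange) library, in UMIs per 10000 on log axes. Points are levels and bars 95% intervals for counting error, with dashed lines at the erythroid-like level of each library. For Cxcl10 only the LSEC-like (9.97) and vessel endothelial-like (8.65) classes lay above the dashed line of the fibrosis library (6.69) among the classes drawn.

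Cxcl1, another Cxcr2 ligand, had its leading level in hepatocyte-like cells and was lower there in fibrosis. It went from 3.78 UMIs per 10000 (472 UMIs in 127 cells) to 1.30 (128 UMIs in 148 cells), a ratio of 0.344 (0.281 to 0.419), whereas 6.44% of genes in this class were called lower. With no mitochondrial limit the ratio was 0.611, short of the call. The hepatocyte-like cells differed in depth, with medians of 7767 and 2082 UMIs, and the fibrosis value lay under the erythroid-like level of 1.86. Elsewhere Cxcl1 was higher in fibrosis, from 0.332 to 1.88 over all monocyte and macrophage clusters and from 0.658 to 1.47 over all endothelial clusters. Those fibrosis values also lay near or under the erythroid-like level. In the fibrosis library Cxcl1 was highest in an unnamed cluster of 30 cells led by Fndc1 and Cyp1b1 (7.43). The same Fndc1/Cyp1b1 cluster held 530 of the 577 Cxcl5 UMIs of the library (91.9%), in 21 of its cells. Cxcl3 was at the edge of detection in neutrophil-like cells, with 2 UMIs in the normal library and 36 in fibrosis (0.985 per 10000).

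The receptor Cxcr2 itself moved less. In neutrophil-like cells it stood at 9.90 UMIs per 10000 in normal and 8.32 in fibrosis cells, a ratio of 0.840 (0.729 to 0.966), and these cells held 82.9% and 71.9% of its UMIs. Cxcr1 had 8 UMIs in normal and 0 in fibrosis neutrophil-like cells, where 0 allows up to 0.0821 per 10000. Ccr1, a receptor for Ccl3, Ccl5, Ccl6 and Ccl9, was also highest in neutrophil-like cells, at 6.64 and 5.80. Cxcr4, which binds Cxcl12 and holds neutrophils in bone marrow, was at 5.46 and 5.44 there, a ratio of 0.998 (0.832 to 1.19). Cxcr2, Ccr1 and Cxcr4 thus did not pass the fold of 2 in these cells, and at a mitochondrial limit of 5% their ratios turned to 1.43, 1.63 and 1.76. Ccr2, a receptor of monocytes, had 11 and 54 UMIs there (0.183 and 1.48 per 10000).

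Among the inflammatory CC ligands, Ccl3 and Ccl4 were higher in neutrophil-like cells of the fibrosis library. Ccl3 in neutrophil-like cells went from 2.38 UMIs per 10000 (143 UMIs in 36 cells) to 11.8 (433 UMIs in 69 cells), a ratio of 4.98 (4.11 to 6.06), against erythroid-like levels of 0.115 and 1.42. Less the erythroid-like level the ratio was 4.60. In NK cell-like cells Ccl3 stood at 6.39 and 4.19, within the fold of 2. Ccl4 in neutrophil-like cells went from 5.67 to 16.1, a ratio of 2.83 (2.48 to 3.25). In this class 14 of 20 member genes were called higher, 12.3% of all genes were, and the median ratio was 3.06 over members and 1.13 over all genes. Of the 14, Ccl3, Ccl4, Cxcl2 and Ccr2 stood at 1 UMI per 10000 or more and at 2 times or more the erythroid-like level of fibrosis. In cells without a Cxcr2 UMI Ccl4 was at 18.7 in the normal library and 29.6 in fibrosis, but 3 cells held 96.4% and 76.1% of those UMIs.

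In NK cell-like cells the lymphocyte ligands were lower together. Ccl5, which acts on Ccr1 among other receptors, stood at 79.9 UMIs per 10000 in the normal library (77.8 to 82.0, 203 cells) and 20.8 in fibrosis (19.6 to 22.1, 159 cells), a ratio of 0.261 (0.244 to 0.279). Ccl4 went from 19.4 to 8.65 (ratio 0.446, 0.40 to 0.498). Xcl1, the ligand of Xcr1 on cross-presenting dendritic cells, went from 8.23 to 3.45 (ratio 0.419, 0.351 to 0.497). Of 20 members measured in this class, 4 were called lower and 10 higher, with 8.16% and 12.2% of all genes called so. The erythroid-like level of Ccl5 was low in both libraries (0.401 and 0.208). The call on Ccl4 was kept in 7 of 12 alternatives, and that on Ccl5 and Xcl1 in 12 of 12.

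The difference in Ccl5 also showed in the share of cells. Thinned to 1000 UMIs, 87.7% of normal NK cell-like cells (82.4% to 91.9%) and 63.3% of fibrosis cells (55.3% to 70.8%) had a Ccl5 UMI, with 1 fibrosis cell left out. The erythroid-like shares were 5.14% and 2.71%. Unthinned, the NK cell-like shares were 94.1% and 74.8%, at medians of 3437 and 2723 UMIs. Both NK cell-like clusters of each library shared the level, with Ccl5 at 78.7 and 81.4 in normal cells and 25.7 and 17.2 in fibrosis cells.

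T cell-like cells carried less Ccl5 and Xcl1 in fibrosis. Ccl5 went from 24.1 to 12.0 UMIs per 10000 (ratio 0.4996, 0.470 to 0.530), and Xcl1 from 1.84 to 0.332 (ratio 0.181, 0.126 to 0.252). Ccl4 moved the other way, from 2.15 to 4.49 (ratio 2.09, 1.84 to 2.38), while its erythroid-like level went from 0.265 to 2.06. In this class 13 of 27 members were called higher and 5 lower, beside 13.9% and 7.84% of all genes. Over all NK and T clusters together (980 and 655 cells) Ccl5 went from 31.5 to 12.0, a ratio of 0.382, and Ccl4 from 5.48 to 4.97, a ratio of 0.908. With these clusters pooled Ccl4 no longer passed the fold of 2, and Ccl5 did.

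Within the normal T cell-like cells Ccl5 was highest in a cluster led by Themis and Cd8a (54.3 UMIs per 10000). Splitting T cell-like cells by the lymph node homing receptor Ccr7 gave less Ccl5 in cells with 2 or more Ccr7 UMIs (9.45 in 75 cells) than in cells with none (28.5 in 420 cells). Cxcr6, which binds Cxcl16 and marks liver-resident T cells, showed a wider gap in this split: 0.534 against 6.18 in normal cells and 0.495 (38 cells) against 2.89 (279 cells) in fibrosis cells.

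Ccl4 and Ccl5 were not confined to lymphocytes. In pDC-like cells (plasmacytoid dendritic cells, makers of type I interferon) Ccl4 went from 7.59 to 3.79 UMIs per 10000 (ratio 0.4997, 0.457 to 0.547). In monocyte-like cells it went from 1.66 to 4.23 (ratio 2.55, 2.08 to 3.16). In cDC1-like cells Ccl4 went from 1.69 to 5.91 and Ccl5 from 0.798 to 4.39, but 3 cells held 85.5% and 95.8% of the fibrosis UMIs. In cDC2-like cells Ccl5 went from 6.64 to 0.358 (ratio 0.0540, 0.0338 to 0.0822). Few cells weighed here too, since 3 of the 172 normal conventional dendritic cells without a Ccr7 UMI held 58.7% of that group's Ccl5 UMIs. Over all conventional dendritic cells together Ccl5 went from 4.37 to 2.62, a ratio of 0.5996 (0.528 to 0.680), so neither call held on pooling. The pool takes in the 8 mature DC-like cells of the normal library, which had Ccl5 at 53.6. Basophil-like cells, only 10 and 9 in number, had Ccl4 at 111 and 99.8 and Ccl3 at 94.1 and 84.2, above every other class.

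Among the Cxcr3 ligands, which interferon induces, Cxcl10 was led by LSEC-like cells (liver sinusoidal endothelial cells). It stood at 4.73 UMIs per 10000 in the normal library (4.55 to 4.92, 982 cells) and 9.97 in the fibrosis library (9.72 to 10.2, 677 cells), a ratio of 2.11 (2.01 to 2.21), where 7.62% of all genes were called higher and 7.98% lower. The erythroid-like level of Cxcl10 differed more, going from 1.02 to 6.69. After it was subtracted, the ratio was 0.884. That level is no shared floor, since Cxcl10 stood at 1.03 in Kupffer cell-like and 1.30 in NK cell-like cells of the fibrosis library. The subtraction can therefore take away too much, and no direction is read from it. In vessel endothelial-like cells Cxcl10 went from 2.55 to 8.65, a ratio of 3.40 (3.15 to 3.67), and of 1.28 after the same subtraction. Over all endothelial clusters it went from 4.09 to 9.75 (2326 and 1568 cells, ratio 2.38). Endothelial levels lay above the erythroid-like level in both libraries, and the direction of the Cxcl10 difference turned with the subtraction in LSEC-like but not in vessel endothelial-like cells. The LSEC-like call was also lost at a mitochondrial limit of 5% (1.72) and at a clustering resolution of 1.5 (1.81).

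Thinned to 1000 UMIs, 27.3% of normal and 50.1% of fibrosis LSEC-like cells had a Cxcl10 UMI, and the unthinned shares were 54.1% and 86.9% at medians of 4857.5 and 7808 UMIs. The erythroid-like shares were 6.31% and 35.8%. Across LSEC-like clusters Cxcl10 spanned 1.18 to 6.77 UMIs per 10000 in normal cells and 3.38 to 13.4 in fibrosis cells, of which the lowest cluster carried haemoglobin genes. In the normal library a mixed myeloid cluster of 48 cells led by Bcl2a1b and Tnip3 was higher still, with Cxcl10 at 18.6 and Cxcl9 at 22.2.

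Cxcl9, the other Cxcr3 ligand measured (Cxcl11 was not listed in either table), was lower in dendritic cells of the fibrosis library. In cDC1-like cells it went from 4.88 UMIs per 10000 (489 UMIs in 19 of 99 cells, 68.1% of them in 3 cells) to 0.171 (14 UMIs in 11 of 82 cells), a ratio of 0.0350 (0.0190 to 0.0594). In cDC2-like cells it went from 1.13 to 0.249. Over all conventional dendritic cells it went from 3.45 to 0.205. The fall was not particular to dendritic cells, since Cxcl9 went from 2.545 to 0.588 over all monocyte and macrophage clusters (ratio 0.231, 0.209 to 0.256). That pool takes in the normal Bcl2a1b/Tnip3 cluster given above, which was high in Cxcl9. LSEC-like cells held it at 2.38 and 3.04, against erythroid-like levels of 0.475 and 1.91. In HSC/MF-like cells Cxcl9 went from 1.70 to 0.639, under the erythroid-like level of the fibrosis library.

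Cxcl12, which binds Cxcr4 and Ackr3 and is made by stromal cells, belonged to the mesenchyme in both libraries. HSC/MF-like cells (hepatic stellate cells and myofibroblasts) stood at 29.3 UMIs per 10000 in the normal library (28.4 to 30.2, 124 cells) and 20.2 in fibrosis (19.8 to 20.6, 258 cells), a ratio of 0.689 (0.664 to 0.714), which did not pass the fold of 2 and turned to 1.36 at a mitochondrial limit of 5%. Their share of all Cxcl12 UMIs was 67.3% and 43.4%. Portal fibroblast-like cells, a name given in the fibrosis library alone (80 cells), stood at 27.9 and held 16.4%. In the normal library a cluster of 44 cells led by Dpt and Col1a1, whose best list was also that of portal fibroblasts but which got no such name under the rule, stood at 14.7 and held 8.59%. Thinned shares of HSC/MF-like cells with a UMI were 83.1% and 78.3%, at medians of 10405.5 and 17222 UMIs, against 5.84% and 18.2% in erythroid-like droplets and 95.2% and 97.3% unthinned. The HSC/MF-like clusters differed among themselves, from 22.2 to 44.9 in normal cells and from 13.7 to 31.5 in fibrosis cells.

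Ccl2, the main ligand of the monocyte receptor Ccr2, was scattered over a few cells. In HSC/MF-like cells it went from 3.08 UMIs per 10000 to 0.954 (ratio 0.309, 0.271 to 0.354), where 8.14% of all genes were called higher and 6.61% lower. But 80.8% of the 432 normal UMIs lay in 3 of 37 cells, and without the 3 highest cells of each library the ratio was 1.16. In mesothelial-like cells Ccl2 went from 3 UMIs in 45 cells to 144 UMIs in 48 cells (ratio 30.7, 10.3 to 151), with 60.4% of the 144 in 3 cells. The Fndc1/Cyp1b1 cluster of the fibrosis library had the highest level, 7.02 (6.47 to 7.61), and Ccl7, a related Ccr2 ligand, at 2.17.

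Cxcl13, the ligand of Cxcr5, which guides B cells to follicles, was lower in fibrosis in both of its normal sources. In Kupffer cell-like cells it went from 3.71 UMIs per 10000 (785 UMIs in 123 of 423 cells) to 0.550 (120 UMIs in 38 of 202 cells), a ratio of 0.148 (0.121 to 0.180), and 7.32% of all genes in this class were called lower and 5.08% higher. In HSC/MF-like cells it went from 4.68 to 0.0166, but 3 cells held 99.7% of the 656 normal UMIs. The Fndc1/Cyp1b1 cluster held 51.0% of the fibrosis UMIs at 4.21, in 5 cells. Over all monocyte and macrophage clusters Cxcl13 went from 2.37 to 0.116. Cxcr5 stood at 0.875 and 0.416 in B cell-like cells.

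The myeloid ligands Ccl6, Ccl9, Ccl24, Pf4 and Cxcl16 differed in where they were made. Ccl6, a Ccr1 ligand, was at 9.55 and 6.92 UMIs per 10000 in neutrophil-like, 9.35 in normal monocyte-like and 5.06 and 7.56 in Kupffer cell-like cells. In fibrosis monocyte-like cells Ccl6 was no higher than 6.92. Ccl9, a relative of Ccl6, went from 4.80 to 3.08 in monocyte-like cells (ratio 0.643, 0.560 to 0.739). That direction did not hold, with a ratio of 2.58 over all monocyte and macrophage clusters, 3.20 at a clustering resolution of 1.5 and 1.39 at a mitochondrial limit of 5%. Ccl9 went from 0.337 to 3.74 in hepatocyte-like cells (ratio 11.1, 8.06 to 15.7), and 13 of 17 members were called higher there beside 41.9% of all genes. Ccl24, an eosinophil attractant, was highest in Kupffer cell-like cells at 4.46 and 4.21 (ratio 0.945, 0.862 to 1.04). The ratio was 0.494 at a mitochondrial limit of 5%, 0.370 over all monocyte and macrophage clusters and 2.04 in UMIs per cell. Ccl24 went from 1.15 to 0.265 in cDC2-like cells.

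Pf4, platelet factor 4, was at 6.46 UMIs per 10000 in the scar-associated macrophage-like class of the fibrosis library, which held 42.5% of its UMIs. In monocyte-like cells it went from 1.64 to 3.16 (ratio 1.92, 1.56 to 2.39), but all 102 normal UMIs lay in 2 cells, whereas 129 of 270 fibrosis cells had one. The ratio fell under 1 in 4 of 5 rebuilt clusterings, to 0.654 without cells of high doublet score, 0.114 and 0.870 at clustering resolutions of 0.4 and 1.5, and 0.153 with members allowed among the variable genes. It was 1.62 with no mitochondrial limit, 2.73 over all monocyte and macrophage clusters and 4.89 as a mean over cells. HSC/MF-like cells went from 0.300 to 1.09. Cxcl16, a membrane-bound ligand of Cxcr6, went from 2.15 to 3.89 in Kupffer cell-like cells (ratio 1.81, 1.61 to 2.03) and stood at 2.43 in normal LSEC-like cells, against erythroid-like levels of 0.475 and 2.49, and the Kupffer cell-like ratio was 0.834 with these subtracted. Ccl17, a dendritic ligand of Ccr4, was at 4.79 in normal cDC2-like cells (280 UMIs in 8 of 82 cells, 84.6% in 3) and at 0 UMIs in 108 fibrosis cells, which allows up to 0.0467 per 10000.

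**Figure D4:**
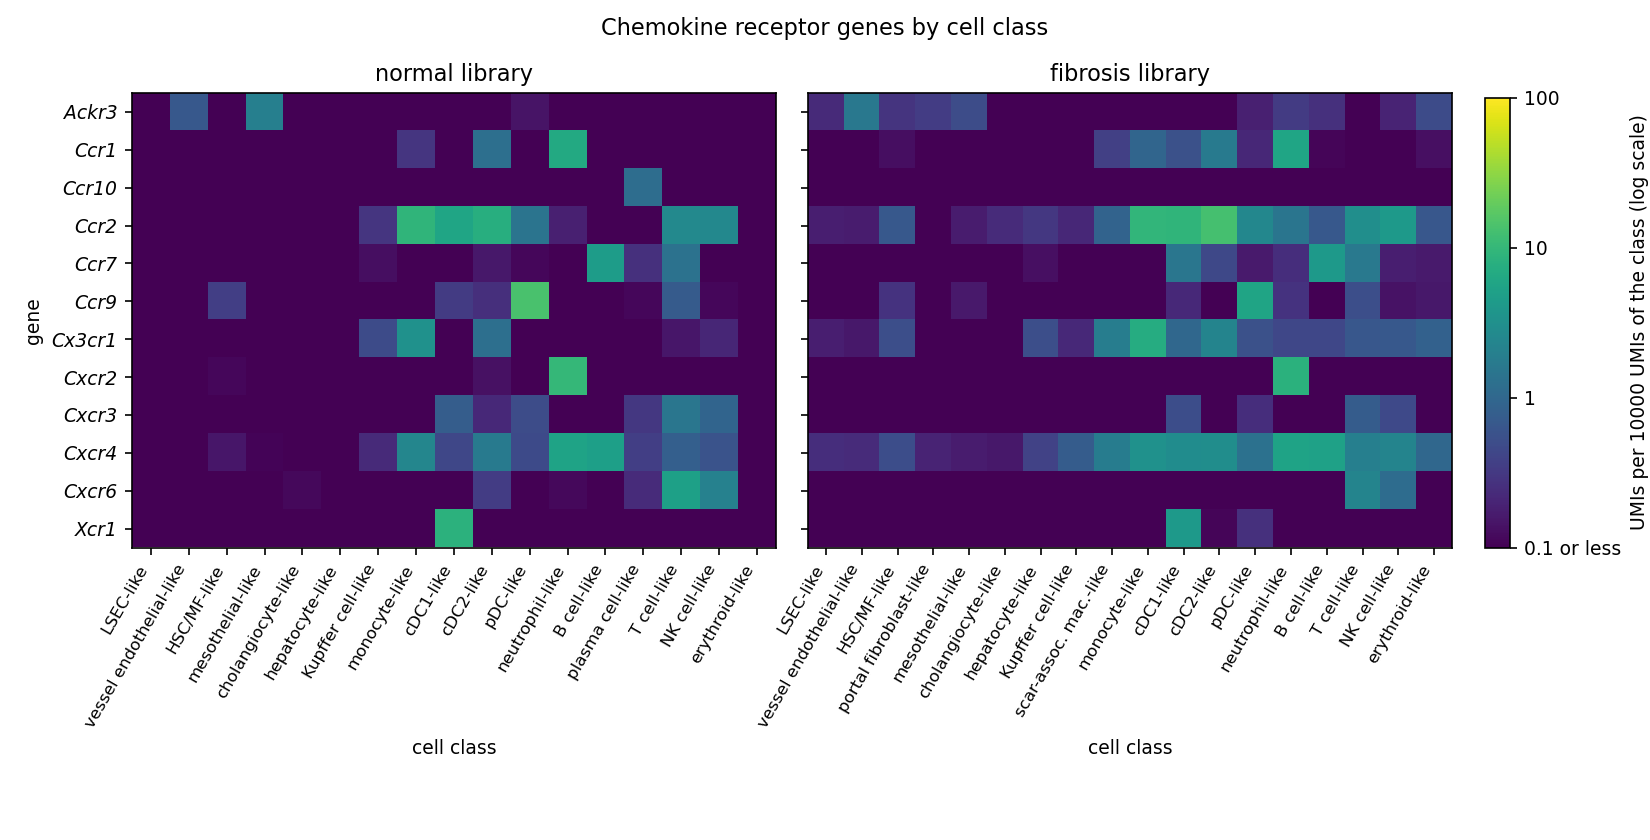
Level of 12 receptor genes by cell class in the normal (left) and fibrosis (right) library, in UMIs per 10000 UMIs of the class on a log colour scale. Cxcr2 was bright in neutrophil-like cells alone (9.90 and 8.32), Ccr9 in pDC-like (13.8 and 5.71) and Xcr1 in cDC1-like cells (8.37 and 4.21), while Cxcr4 and Ccr2 were spread over many leukocyte classes.

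On monocyte-like cells Cx3cr1, which binds the membrane-tethered ligand encoded by Cx3cl1 and supports monocyte survival, went from 3.30 UMIs per 10000 (205 UMIs in 111 cells) to 7.15 (1588 UMIs in 270 cells), a ratio of 2.17 (1.87 to 2.52). Thinned to 1000 UMIs, 27.0% and 45.2% of these cells had a UMI, against 0.234% and 10.3% of erythroid-like droplets, and the unthinned shares were 71.2% and 81.1%. With the erythroid-like level subtracted the ratio was 1.92, short of the call, which was kept in 4 of 12 alternatives. Over all monocyte and macrophage clusters together Cx3cr1 went from 1.96 to 2.80. In the normal library Cx3cr1 was highest in a mixed myeloid cluster led by Cd207 and Mmp13 (11.02, 48 cells).

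Ccr2, the Ccl2 receptor that lets monocytes leave the bone marrow, was at 9.29 and 9.55 UMIs per 10000 in monocyte-like cells, with no difference past the fold of 2. It went from 7.63 to 13.03 in cDC2-like cells (ratio 1.71, 1.52 to 1.92) and stood at 5.76 and 9.30 in cDC1-like cells. In monocyte-like cells 9 of 22 members were called higher and none lower (0 of 22), where 15.3% of all genes were called higher and 9.11% lower.

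Cxcr6 was lower in T cell-like cells of the fibrosis library. It went from 5.09 to 2.24 UMIs per 10000 (ratio 0.440, 0.382 to 0.504), with erythroid-like shares of 0% and 0.542% after thinning and T cell-like shares of 31.2% and 18.4% (60.6% and 36.7% unthinned, medians of 4004.5 and 2740.5 UMIs). Cxcr3 went from 1.49 to 0.752 (ratio 0.505, 0.394 to 0.643), just short of the call. Ccr7, by contrast, was led by B cell-like cells at 4.57 and 4.09 (ratio 0.895, 0.808 to 0.990) and was 1.34 and 1.62 in T cell-like cells. In NK cell-like cells Cxcr4 went from 0.590 to 2.27 (ratio 3.85, 2.68 to 5.62) as its erythroid-like level went from 0.0815 to 1.02. Cxcr4 in B cell-like cells stood at 4.92 and 5.15.

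The composition of the T cell-like class differed between the libraries, and so the values within clusters are given. A cluster led by Lef1 and Tcf7, genes of naive T cells, had Ccr7 at 5.39 in normal cells and 5.63 in fibrosis cells and Cxcr6 at 0.408 and 0.298. Cxcr6 was at 8.03 in a normal cluster led by Il2rb and Trac and at 9.69 in a fibrosis cluster of 20 cells led by Cd163l1 and Il17a. The Lef1/Tcf7 clusters of both libraries were close in Ccr7, and the Cxcr6-high clusters carried different leading genes.

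Ccr9, the gut-homing receptor, was held by pDC-like cells for 80.3% and 68.7% of its UMIs, and went from 13.8 UMIs per 10000 (13.2 to 14.3, 198 cells) to 5.71 (5.39 to 6.04, 212 cells), a ratio of 0.415 (0.386 to 0.445), where 7.62% of all genes were called lower and 14.3% higher. Each library had 2 pDC-like clusters, with Ccr9 at 16.7 and 9.19 in normal cells and 13.01 and 2.66 in fibrosis cells. The lower cluster had the higher median doublet score in both libraries, 0.1669 against 0.0148 in normal cells and 0.1234 against 0.0204 in fibrosis cells. The call on Ccr9 was lost in 5 of 10 alternatives, with ratios of 0.659 without cells of high doublet score, 0.688 with members allowed among the variable genes and 0.585 with no mitochondrial limit. Thinned shares with a Ccr9 UMI were 67.7% and 40.1%, with 0% and 1.36% in erythroid-like droplets and 99.5% and 75.5% unthinned (medians of 7118.5 and 6154.5 UMIs). Xcr1 in cDC1-like cells went from 8.37 to 4.21, a ratio of 0.503 (0.443 to 0.571), just short of the call, and past it in 4 of 9 alternatives. Its thinned shares were 41.4% and 29.3%, 88.9% and 59.8% unthinned, and no UMI was seen in thinned erythroid-like droplets (0 of 428 and 0 of 369).

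**Figure D5:**
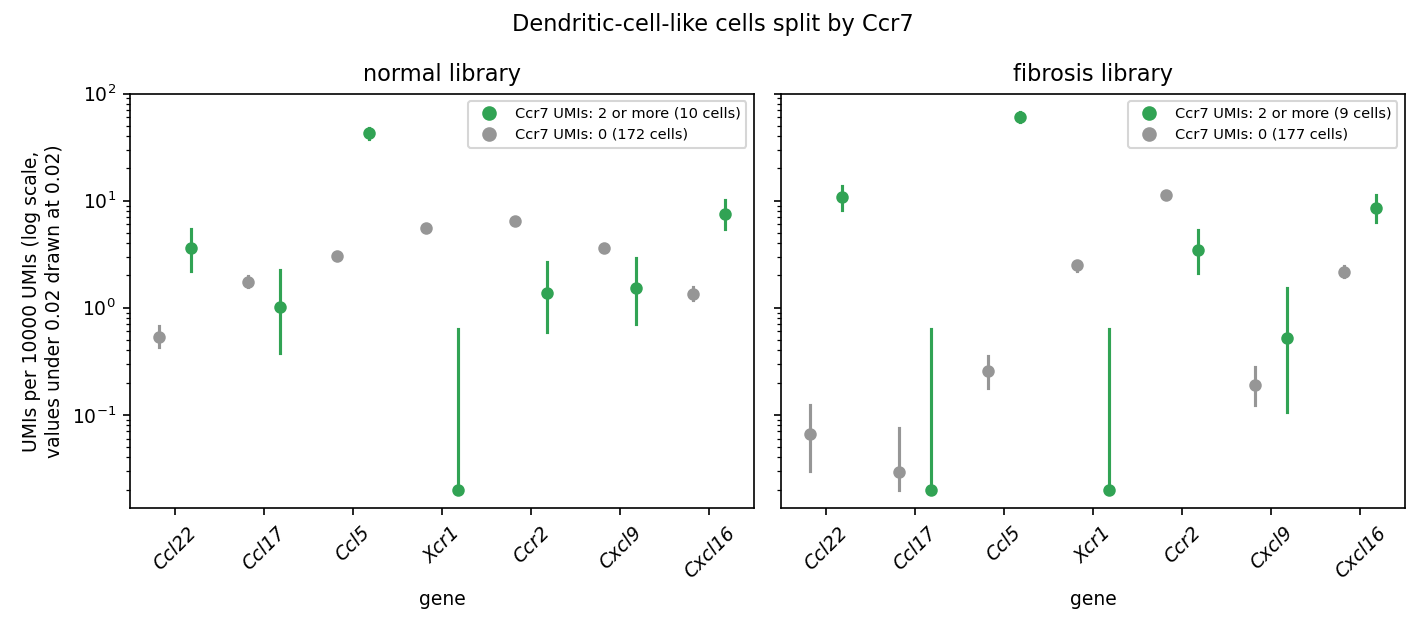
Level of 7 members in conventional dendritic cells with 2 or more Ccr7 UMIs (green) and with 0 (grey), in UMIs per 10000 on a log axis, for the normal (left) and fibrosis (right) library. Bars are 95% intervals for counting error. Ccl5 was higher in the Ccr7 cells of both libraries (42.5 against 3.04, and 60.1 against 0.255), where 3 cells held 85.9% and 99.1% of its UMIs, and Xcr1 was at 0 in them.

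Ccr7 also marks dendritic cells that migrate to lymph nodes, and members were compared between these few cells and the rest. Of 189 and 190 conventional dendritic cells, 10 and 9 had 2 or more Ccr7 UMIs and 172 and 177 had none. The 10 normal cells had Ccl5 at 42.5 UMIs per 10000 (37.4 to 48.1) and the 172 cells at 3.04 (2.77 to 3.33). In fibrosis the values were 60.1 (53.9 to 66.7) and 0.255 (0.178 to 0.355). These levels rested on few cells, since 3 of the Ccr7 cells held 85.9% of their Ccl5 UMIs in the normal library and 99.1% in fibrosis, and 7 of 10 and 4 of 9 had any. Ccl22, the other Ccr4 ligand, was at 3.59 against 0.537 in normal cells and 10.7 against 0.0657 in fibrosis cells, with 98.4% of the UMIs of the fibrosis Ccr7 cells in 3. Cxcl16 was at 7.51 against 1.35 and 8.46 against 2.17, with a UMI in 9 of 10 and 9 of 9 Ccr7 cells. Ccl17 stood at 1.02 against 1.75 and Cxcl9 at 1.54 against 3.65 in normal cells, where 3 of the 172 cells without Ccr7 held 89.8% and 60.5% of the UMIs of that group. In fibrosis Ccl17 had 0 UMIs in the 9 cells and Cxcl9 3 UMIs. Among receptors, Ccr2 was lower, at 1.37 against 6.50 and 3.45 against 11.4, and Xcr1 had 0 UMIs in both Ccr7 groups. A mature DC-like cluster was named in the normal library alone (8 cells). Over all conventional dendritic cells Ccr7 had 139 UMIs in normal cells and 152 in fibrosis cells, a ratio of 1.22 (0.965 to 1.55). In cDC1-like cells alone it had 3 and 123, where the normal mature DC-like cells stood apart as a cluster, and Cxcr4 went from 0.439 to 2.85.

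Of the atypical receptors, Ackr3 (which takes up Cxcl12) reached 1 UMI per 10000. In vessel endothelial-like cells it went from 0.671 (237 UMIs, 526 cells) to 1.61 (528 UMIs, 447 cells), a ratio of 2.40 (2.05 to 2.81), with 8.01% of all genes called higher and 8.69% lower. The signal lay mainly in 1 cluster of each library, led by Rspo3 and Wnt9b in the normal (1.75, 159 cells) and by Nts and Wnt9b in the fibrosis library (2.31, 228 cells), while the other vessel clusters ranged from 0.11 to 0.56. The direction turned in 3 of the 6 alternatives that rebuilt the class, where the ratio was 0.942 at a mitochondrial limit of 5%, 0.249 without cells of high doublet score and 0.229 at a clustering resolution of 0.4. In the other 3 it was 2.43 with no mitochondrial limit, 2.13 at a resolution of 1.5 and 1.90 with members allowed among the variable genes. In mesothelial-like cells Ackr3 went from 1.98 to 0.492. Ccr10, the receptor of plasma cells for mucosal ligands, stood at 1.18 in 97 normal and 1.12 in 29 fibrosis plasma cell-like cells.

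Ligands and their receptors were then set side by side by class of highest level. Cxcl12 was highest in HSC/MF-like (29.3) or portal fibroblast-like cells (27.9) and its receptor Cxcr4 in neutrophil-like cells (5.46 and 5.44), then B cell-like cells (4.92 and 5.15). Xcl1 was highest in NK cell-like cells (8.23 and 3.45) and Xcr1 in cDC1-like cells (8.37 and 4.21), and both levels were lower in fibrosis. Cxcl2 and Cxcr2 were both highest in neutrophil-like cells in each library. Cxcl16 was highest in LSEC-like cells of the normal library (2.43, with Kupffer cell-like cells close at 2.15) and in Kupffer cell-like cells of the fibrosis library (3.89, under 2 times the erythroid-like 2.49), so no change of source is read from it. Its receptor Cxcr6 was highest in T cell-like cells in both. Ccl2 was highest in HSC/MF-like cells of the normal library (3.08, mostly in 3 cells), followed by monocyte-like cells (0.934), which also led for Ccr2 (9.29). A shared level does not show that a signal passed.

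Of 40 other genes of chemokine signalling (G proteins, receptor kinases, arrestins, Rgs proteins, guanine exchange factors and kinases) 38 were listed. In neutrophil-like cells 5 of 35 were higher (Rgs1, Rgs10, Plcb3, Ptk2b and Mif) and 2 lower (Plcb2 and Rarres2), beside 12.3% and 9.36% of all genes. In monocyte-like cells 4 of 38 were higher and 4 lower (15.3% and 9.11% of all genes), in Kupffer cell-like cells none were higher (0 of 37) and 2 lower (5.08% and 7.32%), and in NK cell-like cells 4 of 35 were higher and 1 lower (12.2% and 8.16%). In LSEC-like cells 11 of 37 were higher and 1 lower (7.62% and 7.98%), and in vessel endothelial-like cells 14 of 37 were higher and 2 lower (8.01% and 8.69%). In HSC/MF-like cells 12 of 38 were higher and 2 lower (8.14% and 6.61%), and in hepatocyte-like cells 24 of 29 were higher (41.9%) and none lower (0 of 29). In the other classes, erythroid-like droplets aside, 1 to 9 were higher and 1 to 3 lower, beside 5.52% to 14.6% and 5.66% to 7.84% of all genes. Many of those higher in endothelial cells are leukocyte genes (Rgs1, Vav1, Fgr, Ptk2b), and 34 of 37 were higher in erythroid-like droplets, where 76.8% of all genes were. Rarres2 encodes chemerin, a chemoattractant that acts on Cmklr1 and is no chemokine. It was called lower in NK, T and B cell-like, LSEC-like, HSC/MF-like and Kupffer cell-like cells among others.

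The calls of all members were also counted by class. In B cell-like cells 19 of 29 members were higher and 2 lower (12.7% and 7.76% of all genes), in LSEC-like cells 17 of 29 and 4 (7.62% and 7.98%), in vessel endothelial-like cells 19 of 29 and 4 (8.01% and 8.69%), and in pDC-like cells 18 of 33 and 5 (14.3% and 7.62%). In cholangiocyte-like cells 12 of 30 were higher and 6 lower (5.52% and 5.66% of all genes), and in mesothelial-like cells 14 of 19 and 2 (13.6% and 7.25%). In Kupffer cell-like cells 7 of 27 were higher and 4 lower (5.08% and 7.32%), in HSC/MF-like cells 14 of 37 and 8 (8.14% and 6.61%), in cDC1-like cells 14 of 24 and 2 (14.6% and 6.22%), and in cDC2-like cells 4 of 23 and 5 (10.2% and 6.8%). Outside leading classes 74 calls were higher and 9 lower at 1 UMI per 10000 or more. Of the 74 only 14 stood at 2 times or more the erythroid-like level of the fibrosis library, 49 did not, and 11 were in erythroid-like droplets. The 9 lower calls were set against the erythroid-like level of the normal library, at most 0.475 for these genes. A level of 1 or more passed that limit in advance, so the higher and lower counts cannot be compared. Cxcl10 accounted for 9 of the 49, Cxcl2 for 8 and Cxcl1 for 7.

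The total of member UMIs summarises the classes. Per 10000 UMIs it went from 126 to 59.98 in NK cell-like, from 64.7 to 121 in neutrophil-like, from 51.4 to 40.1 in HSC/MF-like, from 44.9 to 59.9 in monocyte-like, from 13.6 to 23.7 in LSEC-like and from 8.73 to 22.0 in vessel endothelial-like cells. The remaining 28 members stayed under 1 UMI per 10000 in every named class of 30 cells or more. Among them was Ccl21a, with 752 of its 955 normal UMIs (78.7%) in an unnamed cluster of 14 cells led by Mmrn1 and Fxyd6 (77.6 per 10000), against 23 UMIs in all fibrosis cells. Ccl21a and Ccl21c are near-identical copies, so their counts cannot be told apart with certainty. Cx3cl1 reached 0.676 in portal fibroblast-like cells, Ccl19 0.182, Ccr3 stood at 0.985 and 1.13 in the few basophil-like cells, and Ccr6, another receptor of B cells, went from 0.249 to 0.557 in B cell-like cells. The others under that level were Ccl1, Ccl7, Ccl8, Ccl11, Ccl12, Ccl20, Ccl22, Ccl25, Ccl27a, Ccl28, Cxcl3, Cxcl5, Cxcl14, Cxcl17, Ppbp, Ccr4, Ccr8, Cxcr1, Cxcr5, Ackr1, Ackr2 and Ackr4.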

How the data were processed

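Liver non-parenchymal cells of 1 normal and 1 fibrosis library were measured by 10x Chromium 3′ single-cell RNA-seq. The UMI counts per gene and cell were deposited by the authors without normalization, after alignment to mm10 with Cell Ranger 3.0.1. Each table lists only genes with at least 1 UMI.

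Cells with under 10% mitochondrial UMIs and over 200 genes were kept. Each library was clustered alone (scanpy 1.11.5, 2000 variable genes without the members, 10 components, 20 neighbours, Leiden resolution 0.8) and clustered again within lineages. A cluster took the name of the list whose markers had the highest mean log2 fold over the other cells. At least 3 of these markers had to be raised 2 times. Its 10 top genes served as a check, and a cluster that failed it was called mixed or left unnamed. This rule was the 4th tried, chosen after clusters had been seen. The members and lists were chosen with earlier results of these data known. Scrublet called 1 cell per library and none was removed, and the methods state that doublets had been excluded. A call was a ratio of 2 or more, or 0.5 or less, with 20 or more UMIs. Genes named were those at 1 UMI per 10000 in a named class of 30 cells. Intervals are exact (Poisson, conditional, Clopper-Pearson) at 95%, with a floor of 3 counts for 0. Shares of cells were also taken after thinning to 1000 UMIs. Depth ranged from 898 to 75847 UMIs per normal and 815 to 116430 per fibrosis cell. The values of 1 member are not reported here, though counts include it. Alternatives are given at the end. scipy 1.17.1 and Python 3.11.15 were used, and calculations were tested on simulated data.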

Additional observations from a re-analysis of the deposited data

Results flagged for a closer look

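In 4 genes the ratio of fibrosis over normal passed the fold of 2 in opposite directions in different classes, counting only levels of 1 UMI per 10000 or more that were also 2 times or more the erythroid-like level of the same library. Without that limit Cxcl9 and Cxcl1 also did, with ratios of 0.0350 in cDC1-like and 2.42 in vessel endothelial-like cells for Cxcl9 and of 0.344 in hepatocyte-like and 2.21 in LSEC-like cells for Cxcl1. The difference between classes was not tested, since each condition had 1 library. Ackr3 had a ratio of 0.248 in mesothelial-like and 2.40 in vessel endothelial-like cells. Ccl2 had a ratio of 0.309 in HSC/MF-like and 30.7 in mesothelial-like cells, both resting on few cells.

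Ccl4 had ratios of 0.446 in NK cell-like and 0.4997 in pDC-like cells, against 2.09 in T cell-like, 3.51 in cDC1-like, 2.55 in monocyte-like and 2.83 in neutrophil-like cells. Its erythroid-like level went from 0.265 to 2.06 UMIs per 10000. Ccl5 had ratios of 0.261 in NK cell-like, 0.4996 in T cell-like and 0.0540 in cDC2-like cells, against 5.51 in cDC1-like cells, where 3 cells held 95.8% of the fibrosis UMIs. In the normal library 3 of the 172 conventional dendritic cells without a Ccr7 UMI held 58.7% of that group's Ccl5 UMIs. Over all conventional dendritic cells, which take in the normal mature DC-like cells (Ccl5 at 53.6 UMIs per 10000), Ccl5 had a ratio of 0.5996 (0.528 to 0.680), within the fold of 2.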

How the results depend on the processing

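No paired analysis was possible because each condition had 1 library and the labels give no replicate numbers. Of 30 members, 19 kept their leading class at a mitochondrial limit of 5%, and 21 to 29 under the other rebuilt clusterings. Members higher in their leading class numbered 8 at a fold of 1.5, 1 at a fold of 3 and 2 after subtraction of the erythroid-like level (added after seeing the data), and members lower numbered 5 at a fold of 3. Other settings gave 4 to 6 higher and 8 to 13 lower. Ackr3 in vessel endothelial-like cells reversed at a mitochondrial limit of 5% (0.942), without the cells of highest Scrublet score (0.249) and at resolution 0.4 (0.229). Ccl2 in HSC/MF-like cells reversed at the 5% limit (1.13), without high Scrublet scores (1.19) and without its 3 highest cells (1.16). Cxcl10 in LSEC-like cells reversed after subtraction (0.884) and lost its call at the 5% limit (1.72) and at resolution 1.5 (1.81), and kept it in 9 of 12. The Cxcl10 level subtracted in fibrosis (6.69) was above the whole level of classes such as Kupffer cell-like cells (1.03). The subtraction can therefore take away too much. The cause of these changes was not tested.

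Ccl3 in neutrophil-like cells (3.04 to 9.68), Ccl5 (0.224 to 0.382) and Xcl1 (0.209 to 0.417) in NK cell-like cells, Cxcl13 in Kupffer cell-like cells (0.0492 to 0.320), and Cxcr6 in T cell-like cells (0.340 to 0.478) kept their call in 12 of 12 alternatives, or 11 of 11 for Ccl3. Cxcl9 in cDC1-like cells kept it in the 8 that gave a value (0.0305 to 0.105) and Ccl17 in cDC2-like cells in 9, but 3 of 6 rebuilt clusterings gave no value for Cxcl9 and 2 of 6 none for Ccl17. Cxcl2 in neutrophil-like cells kept it in 10 of 11 (1.63 to 5.18), Cx3cr1 in monocyte-like cells in 4 of 12, Ccl4 in NK cell-like cells in 7 of 12, and Ccr9 in pDC-like cells in 5 of 10. Cxcr3 in T cell-like cells was under 0.5 in all 12 alternatives.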
